A study of Homo sapiens with 6 samples.

Results

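Genes of origin licensing and of the replication fork were examined as a set of 36 members, chosen by gene symbol and grouped by the step they serve. The set held 5 licensing genes, 12 helicase genes, 4 polymerase genes, 5 clamp and clamp loading genes, 5 fork processing genes and 5 genes of nucleotide supply. Every symbol matched 1 row, so the members were 36 of 60623 genes in the table, and all 36 had enough reads to be tested. Bulk RNA was sequenced from 6 samples that the labels give as PANC-1 cells, a long-used line from a human pancreatic ductal carcinoma. In 3 of them a short hairpin RNA against STN1, a telomere-binding protein that also helps DNA polymerase alpha, is named in the title, and the genotype field reads STN1, STN2 and STN3 knockdown. The other 3 are titled as the control hairpin for shSTN1, a scramble, with the genotype given as WT. All cells were grown in DMEM with serum, and no label says whether a line was a clone or a pool, or how long after the hairpin the RNA was taken. The labels call the libraries biological replicates without describing separate cultures, so p-values reflect only how much these libraries vary, which may be technical variation.

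Chromosomes are copied from origins that are prepared in the G1 phase. The origin recognition complex, CDC6 and CDT1 load the ring of MCM2 to MCM7 onto DNA, and geminin blocks CDT1 afterwards so that no origin fires again in the same cycle. In S phase CDC45 and the GINS complex join the MCM ring to form the active helicase. Polymerases epsilon and delta then copy the leading and lagging strands, held by the PCNA clamp that the RFC complex loads. Many of these genes are transcribed under control of E2F factors, which act at the passage from G1 to S phase, and proliferating carcinoma cells express them at high levels.

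The libraries differed far beyond the replication genes and partly against their labels. STN1 itself was at 14.8, 14.02 and 15.6 CPM (read counts relative to library size after TMM scaling) in the shSTN1-labelled libraries, against 18.6, 15.5 and 15.1 CPM in the shControl-labelled libraries. The groups overlapped, and the log2 fold change was -0.15 (limma-voom 95% interval -0.38 to 0.09, edgeR adjusted p = 0.253). Without scaling factors it was -0.35 and passed the adjusted p threshold of 0.05. The targeted mRNA gives the labels no clear check, and all comparisons are of libraries by their labels. Of 10 markers of embryonic kidney lines, 8 were lower and 1 higher in the shSTN1-labelled libraries, with summed levels of 76.8 to 79.6 CPM against 908 to 972 CPM in the shControl-labelled libraries. CDKN2A, a cell cycle inhibitor that PANC-1 is known to lack, had 0 reads in the shSTN1-labelled libraries and 11753 reads in the shControl-labelled libraries. On that list SALL1, EYA4 and INSM1 were likewise at 0 reads there. Of 15 markers of pancreatic carcinoma lines, 14 were higher and 1 lower, with sums of 13840 to 14030 CPM against 2752 to 2890 CPM. Leukocyte and endothelial markers summed to 18.4 to 22.6 CPM against 17.1 to 19.1 CPM, with CD3E and PECAM1 at 0 reads in both groups. A difference in the cells of the groups and an effect of the hairpin cannot be told apart in this design. Libraries held 17357223 to 23336942 counted reads.

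Most of the replication set was lower in the shSTN1-labelled libraries, with the helicase genes lowest and the nucleotide supply genes the exception. Of the 36 members, 26 (72.2%) were lower and 4 higher in the shSTN1-labelled libraries at an edgeR adjusted p under 0.05, and 6 did not pass. Over all 17451 genes tested, 74.1% passed, 38.5% as lower and 35.6% as higher, so that passing alone says little about a member. The median log2 fold change was -0.62 over the members and -0.025 over all genes tested. At least 2-fold lower were 9 of the 36 members, against 3310 (19%) of the 17451 genes tested. At least 2-fold higher were 0 of the 36 members, against 2735 of the 17451 genes tested. The shSTN1-labelled libraries all lay below the shControl-labelled ones for 27 of the 36 members, against 39% of all genes. They all lay above for 4 members, against 6394 of the 17451 genes tested. Without scaling factors 38.0% of the genes that passed were higher, against 48.0% with them, and the members split into 30 lower and 3 higher, 14 of them 2-fold lower. POLE, POLE2, RFC4 and LIG1 then passed as lower, RPA3 no longer passed, and DUT and CLSPN turned to -0.13 without passing. Together the members took 0.360% to 0.364% of the reads in the shSTN1-labelled libraries and 0.568% to 0.584% in the shControl-labelled libraries. In bulk RNA, fewer cells in S phase and less RNA of these genes per cell cannot be told apart.

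**Figure D1:**
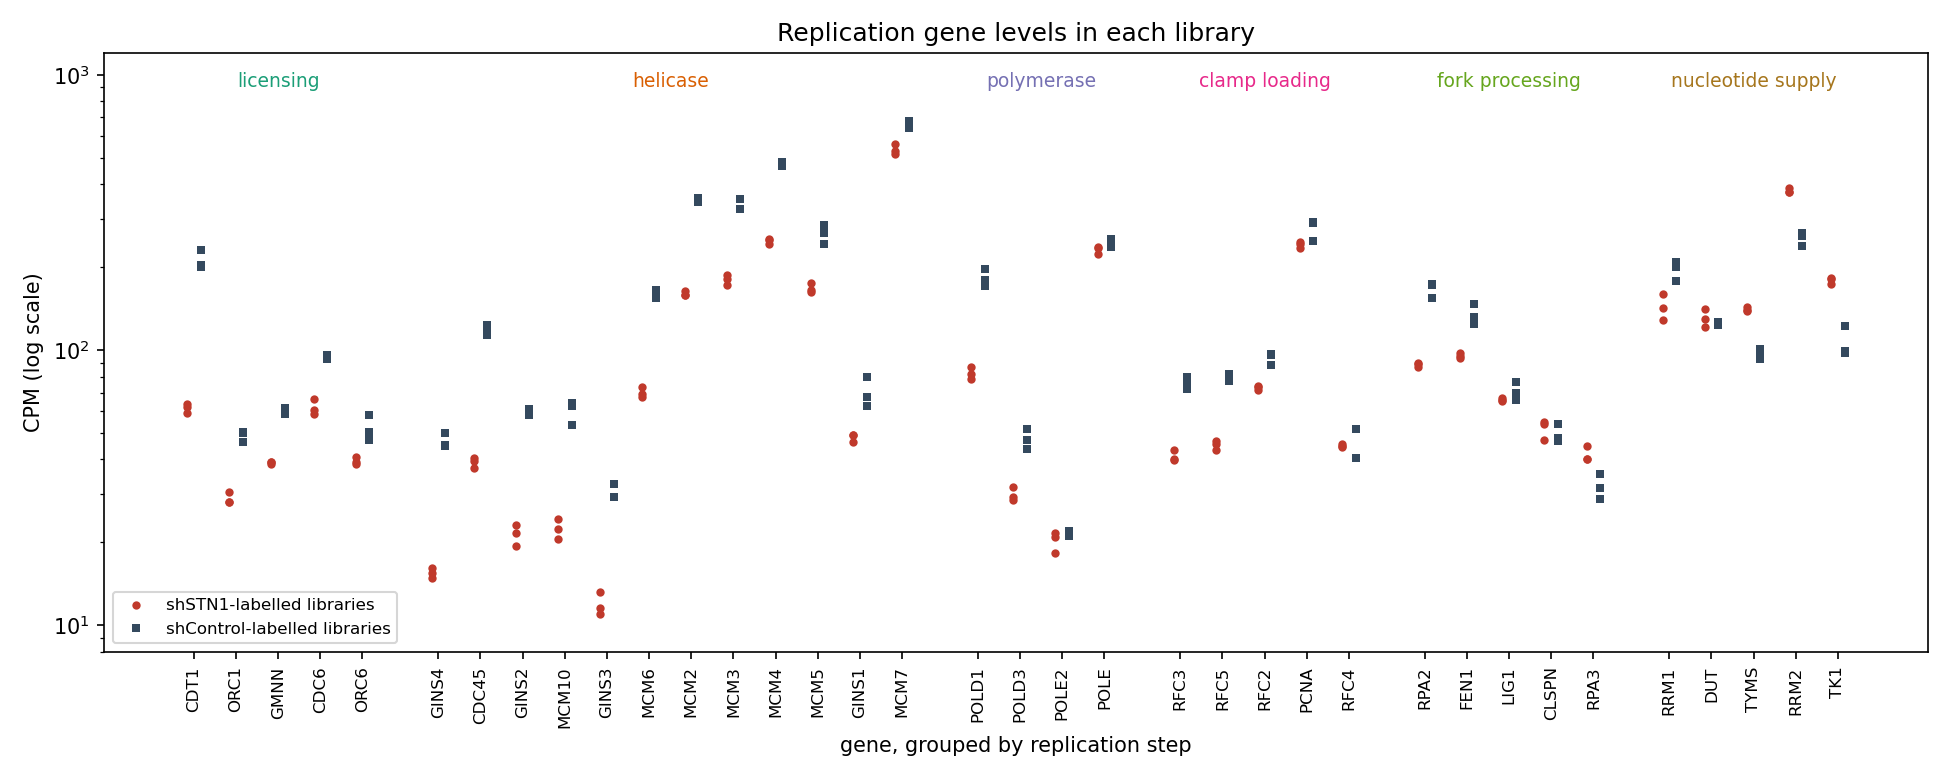
Levels of the 36 replication genes in CPM on a log scale, with 1 point per library (circles, shSTN1-labelled; squares, shControl-labelled), grouped by step. All 12 helicase genes lie lower in the shSTN1-labelled libraries, and TK1, RRM2, TYMS and RPA3 lie higher.

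Many of the members, though not all, share promoter letters that their choice did not use. E2F-type motifs were searched on both strands as TTTCCCGC, TTTGGCGC, TTTCGCGC or TTTGCCGC, in windows from 250 bases before to 50 bases after each start in the RefSeq promoter table (GRCh38.p14), where 30 members had 42 windows. A match was found in 42.9% of the members' windows, in 4.65% of 17036 windows of tested genes, and in 3.31% of all 35116 windows. By gene, 18 of the 30 members had a match, and for 15 of these the nearest match began within 60 bases before or 10 bases after the start. By gene the share was 57.1% (12 of 21) for members that were lower and 66.7% (6 of 9) for the other members, of which those that were higher had a match in 1 of 3 genes. These shares rest on few genes and their difference was not tested. Shown are the 160 bases before the first listed start of CDT1, which had the lowest log2 fold change of the members, MCM6, which had the most matches, and RRM2 and TYMS, which were both higher. Capitals mark matches. In MCM6 each capital run holds 2 overlapping matches, 1 on each strand, and RRM2 has none in the stretch shown. The stretches lie at chr16:88803629-88803788 (plus strand) for CDT1, chr2:135876444-135876603 (minus strand) for MCM6, chr2:10122579-10122738 (plus strand) for RRM2 and chr18:657493-657652 (plus strand) for TYMS.
CDT1: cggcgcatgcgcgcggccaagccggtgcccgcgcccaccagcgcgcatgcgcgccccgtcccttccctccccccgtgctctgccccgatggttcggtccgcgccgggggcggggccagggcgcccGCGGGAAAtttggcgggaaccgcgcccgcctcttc
MCM6: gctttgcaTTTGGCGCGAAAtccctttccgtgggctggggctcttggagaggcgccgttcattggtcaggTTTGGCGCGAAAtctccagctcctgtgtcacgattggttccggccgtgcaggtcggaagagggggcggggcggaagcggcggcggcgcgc
RRM2: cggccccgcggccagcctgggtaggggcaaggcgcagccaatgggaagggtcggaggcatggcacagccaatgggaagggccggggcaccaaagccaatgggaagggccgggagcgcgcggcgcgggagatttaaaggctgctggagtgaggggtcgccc
TYMS: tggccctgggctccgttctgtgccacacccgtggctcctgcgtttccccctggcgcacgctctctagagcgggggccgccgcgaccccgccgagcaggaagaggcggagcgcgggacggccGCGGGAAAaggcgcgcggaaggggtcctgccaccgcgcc

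Licensing genes were lower in 5 of 5 cases, with a median log2 fold change of -0.63. CDT1 (ENSG00000167513.9), the loader of the MCM ring, stood at 62.0, 63.9 and 58.8 CPM in the shSTN1-labelled libraries, against 203, 200 and 230 CPM in the shControl-labelled libraries. The groups lay far apart, at 61.6 ± 2.54 against 211 ± 16.8 CPM (SD, n = 3 each), a 3.43-fold lower level (log2 fold change -1.78, SE of the difference of group means 0.0734, edgeR adjusted p = 7.22e-21). ORC1, the largest subunit of the origin recognition complex, was at 30.4, 28.0 and 28.1 CPM in the shSTN1-labelled libraries and at 49.8, 46.2 and 50.1 CPM in the shControl-labelled libraries (log2 fold change -0.76, edgeR adjusted p = 2.84e-09). GMNN encodes geminin, the CDT1 inhibitor. It was at 39.1, 39.1 and 38.4 CPM in the shSTN1-labelled libraries and at 61.5, 58.3 and 60.03 CPM in the shControl-labelled libraries (log2 fold change -0.63, edgeR adjusted p = 2.29e-08). For both genes the groups did not overlap. CDC6, the ATPase that works with CDT1, had a log2 fold change of -0.62, and ORC6, the smallest ORC subunit, -0.39.

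CDT1 and its inhibitor GMNN were lower by different amounts. Within each library the ratio of GMNN to CDT1 reads does not depend on library scaling. It was 0.630, 0.612 and 0.653 in the shSTN1-labelled libraries, against 0.303, 0.292 and 0.260 in the shControl-labelled libraries, with no overlap. On the log2 scale the means were -0.66 ± 0.0468 and -1.81 ± 0.113 (SD, n = 3 each), a difference of 1.15 (two-sided exact permutation test, p = 0.1, the smallest that 3 libraries against 3 can give). Of 8 genes tied to the turnover of the CDT1 and geminin proteins, 6 were lower and 2 higher, with a median of -0.52. Over all genes tested 38.5% were lower and 35.6% higher. Lower genes on the list include FBXO5 (-0.57), which encodes an inhibitor of the ligase that degrades geminin and does not itself remove CDT1. SKP2, an F-box protein that directs CDT1 to degradation, was at 29.5, 26.4 and 25.8 CPM in the shSTN1-labelled libraries and at 116, 124 and 108 CPM in the shControl-labelled libraries (log2 fold change -2.09, edgeR adjusted p = 4.32e-21). DTL, the receptor that recognises CDT1 on PCNA-bound chromatin, had a log2 fold change of -1.35. The alternative scaffolds of that ligase went opposite ways, CUL4B at -1.02 and CUL4A at 0.88.

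**Figure D2:**
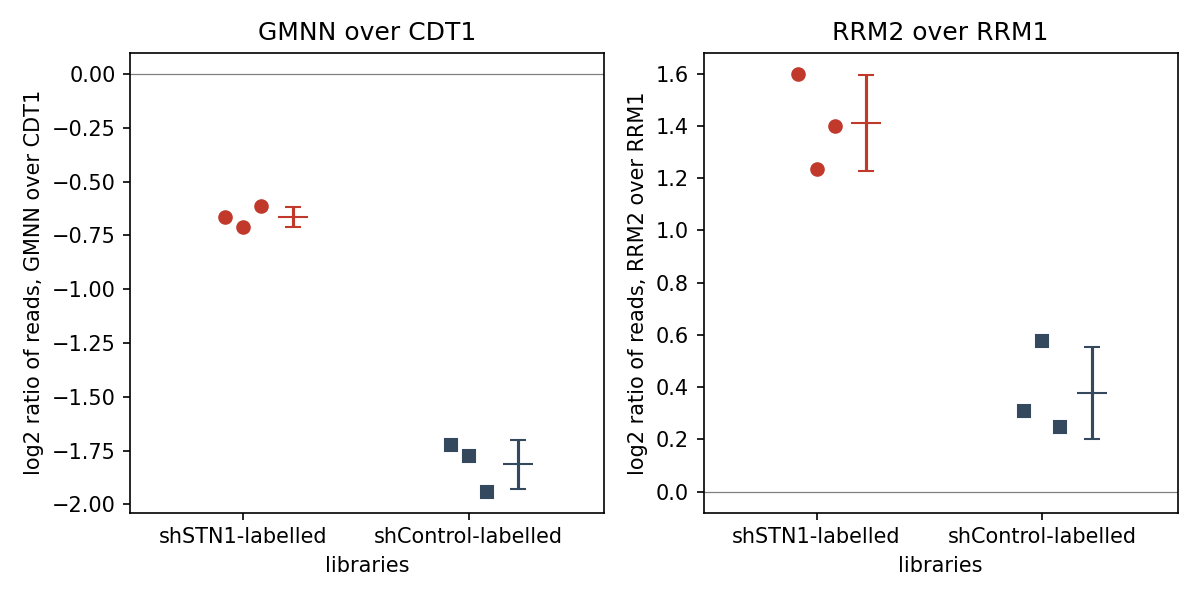
Log2 ratio of reads of GMNN over CDT1 (left) and RRM2 over RRM1 (right) in each library, with the mean and SD (bars) of 3 libraries per group. The shSTN1-labelled libraries lie above the shControl-labelled ones in both panels, by 1.15 and 1.03 on average.

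Other genes of licensing and origin firing were lower for 9 of 15, higher for 0 and not past the threshold for 6 (median -0.37). Over all genes tested 38.5% were lower and 35.6% higher. CDC7, the kinase that fires licensed origins, was at 28.6, 31.4 and 34.0 CPM in the shSTN1-labelled libraries and at 62.2, 59.5 and 54.6 CPM in the shControl-labelled libraries (log2 fold change -0.91, edgeR adjusted p = 5.64e-11). Its activating subunit DBF4 was at 40.0 ± 4.85 against 39.4 ± 4.88 CPM (SD, n = 3 each, log2 fold change 0.02), whereas the alternative subunit DBF4B was lower (-0.98). TICRR and MTBP, partners in bringing CDC45 to the origin, had log2 fold changes of -0.80 and -1.35.

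Helicase genes were lower in 12 of 12 cases, with a median of -1.16, and 7 of them were at least 2-fold lower. GINS4 stood at 15.4, 14.8 and 16.2 CPM in the shSTN1-labelled libraries, against 45.05, 49.8 and 44.9 CPM in the shControl-labelled libraries (log2 fold change -1.59, SE 0.0615, edgeR adjusted p = 4.18e-16). CDC45, which links the MCM ring to GINS, was at 39.5, 37.3 and 40.4 CPM in the shSTN1-labelled libraries and at 124, 113 and 115 CPM in the shControl-labelled libraries (log2 fold change -1.59, SE 0.0510, edgeR adjusted p = 6.75e-19). The groups were separated by over 2-fold at their nearest points for both genes. GINS2 was at 23.1, 21.6 and 19.4 CPM in the shSTN1-labelled libraries and at 61.1, 58.0 and 57.9 CPM in the shControl-labelled libraries (log2 fold change -1.47). MCM10, a scaffold that starts the helicase, had a log2 fold change of -1.42 and GINS3 of -1.40. GINS1, the remaining GINS subunit, differed least of the complex at -0.54.

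Within the MCM ring, whose subunits are used in equal numbers, the differences ranged from -1.19 for MCM6 to -0.31 for MCM7. MCM2 was at 158, 158 and 164 CPM in the shSTN1-labelled libraries and at 357, 350 and 344 CPM in the shControl-labelled libraries (log2 fold change -1.13, edgeR adjusted p = 2.65e-17). MCM3 (-0.93), MCM4 (-0.92) and MCM5 (-0.66) lay in between. Per kilobase of annotated exon, MCM7 had the highest level of the ring in both groups, at 122 CPM per kb in shSTN1-labelled and 151 CPM per kb in shControl-labelled libraries. The highest level per kb in the ring exceeded the lowest by 7.17-fold in the shSTN1-labelled libraries and by 4.19-fold in the shControl-labelled libraries. Exon length here is the union over all GENCODE 29 transcripts, which understates the level of genes with long rare transcripts. AP4M1, which shares 8.94% of the exon bases of MCM7 on the other strand, was higher (log2 fold change 1.08). Whether the counting used strand is not given in the sources used here, so reads of such pairs may be exchanged or lost.

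**Figure D3:**
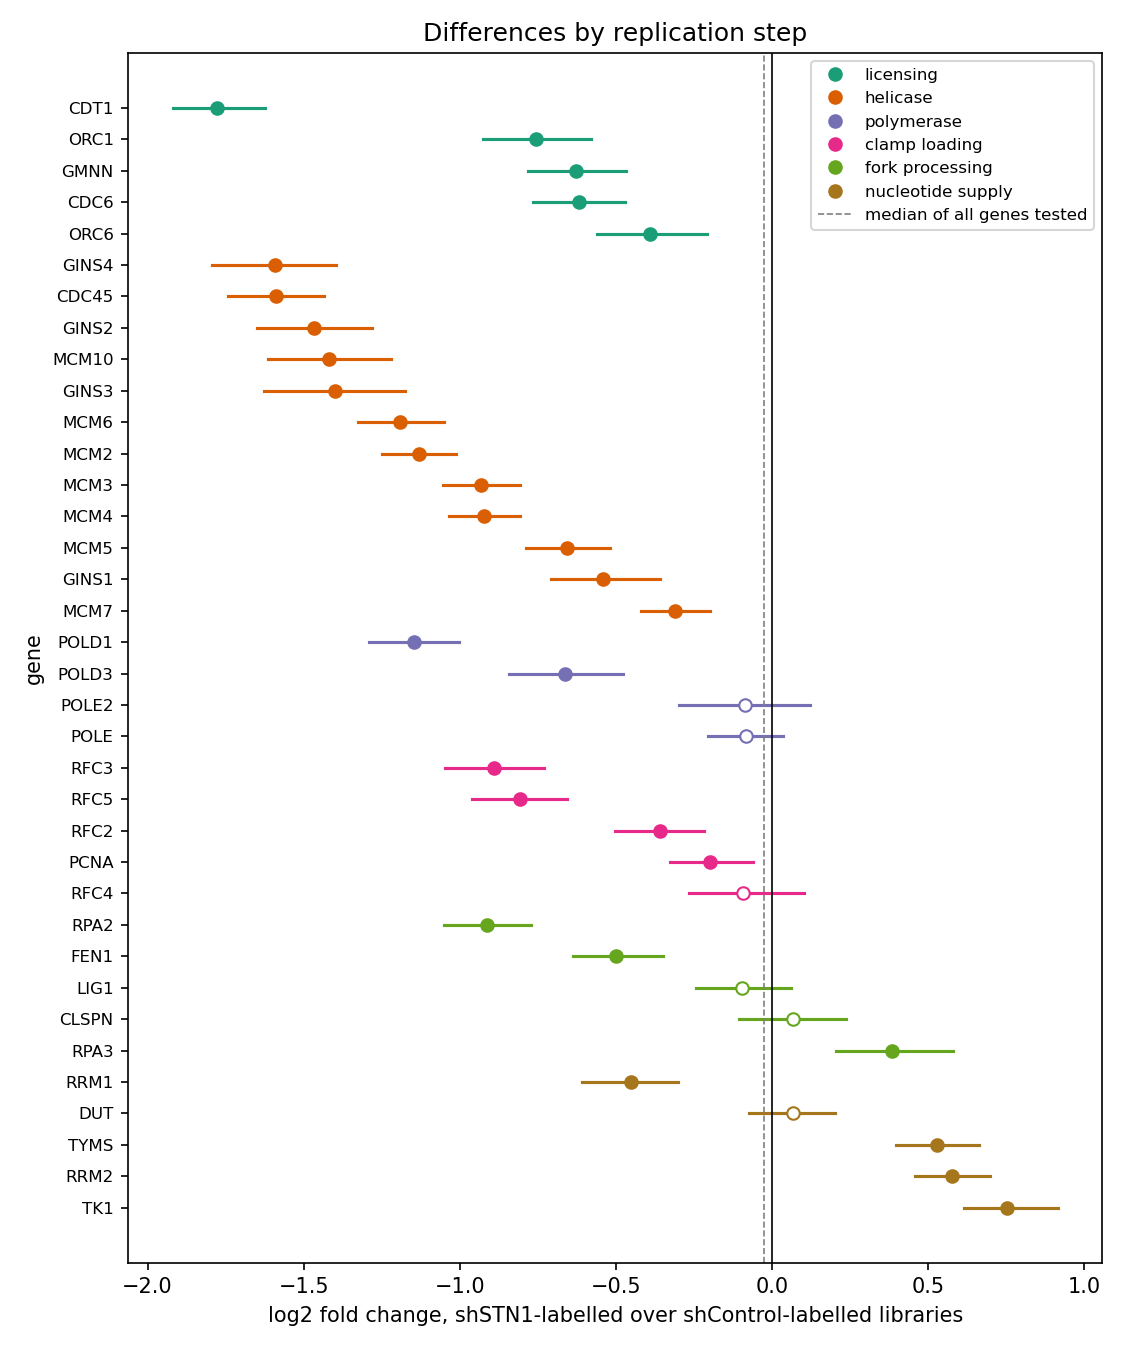
Log2 fold change of each replication gene (edgeR, shSTN1-labelled over shControl-labelled libraries) with its limma-voom 95% interval as a line, by step. Filled circles passed an adjusted p of 0.05 and open circles did not, and the dashed line is the median of all genes tested, -0.025.

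Of the 4 polymerase members, both of polymerase delta were lower and neither of polymerase epsilon passed. POLD1, the catalytic subunit of polymerase delta, was at 78.2, 82.0 and 86.8 CPM in the shSTN1-labelled libraries and at 171, 179 and 198 CPM in the shControl-labelled libraries (log2 fold change -1.15, SE 0.0757, edgeR adjusted p = 5.98e-16). POLD3, an accessory subunit of the same enzyme, was at 28.4, 31.9 and 29.3 CPM in the shSTN1-labelled libraries and at 51.5, 43.6 and 46.9 CPM in the shControl-labelled libraries (log2 fold change -0.66, edgeR adjusted p = 7.88e-08). Neither gene overlapped between groups. POLE2, the second subunit of polymerase epsilon, was at 18.2, 21.7 and 20.9 CPM against 21.6, 21.0 and 21.9 CPM in the shControl-labelled libraries. The groups overlapped, and its log2 fold change of -0.09 did not pass (95% interval -0.30 to 0.12, edgeR adjusted p = 0.47). The catalytic subunit gene POLE averaged 232 ± 7.25 CPM in shSTN1-labelled and 245 ± 8.22 CPM in shControl-labelled libraries (SD, n = 3 each), with an interval of -0.20 to 0.04 and an edgeR adjusted p of 0.226. The difference between the enzymes was not tested, and their other subunits did not split by enzyme.

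Of 13 other polymerase and clamp genes, 7 were lower and 3 higher (median -0.18), beside 38.5% lower and 35.6% higher over all genes tested. POLA1, the catalytic subunit of the polymerase that primes both strands, was at 15.9, 16.2 and 18.0 CPM in the shSTN1-labelled libraries and at 55.0, 50.6 and 46.7 CPM in the shControl-labelled libraries (log2 fold change -1.61). RFC1, the large subunit of the clamp loader, had a log2 fold change of -1.05, and POLE3, a histone-fold subunit of polymerase epsilon, -0.69. POLD4, the smallest subunit of polymerase delta, was higher, at 20.1, 20.9 and 20.3 CPM in the shSTN1-labelled libraries and 9.14, 6.17 and 8.45 CPM in the shControl-labelled libraries (log2 fold change 1.37, edgeR adjusted p = 4.07e-11). POLE4, another histone-fold subunit of polymerase epsilon, was higher too (0.795), and POLD2, a further subunit of polymerase delta, was lower by little (-0.18). Subunits of both enzymes thus lay on both sides of 0.

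The clamp and its loader were lower in 4 of 5 cases, with 0 higher and a median of -0.36. RFC3 was at 39.9, 43.4 and 40.1 CPM in the shSTN1-labelled libraries and at 79.4, 77.0 and 72.2 CPM in the shControl-labelled libraries (log2 fold change -0.89, edgeR adjusted p = 7.72e-12). RFC5 was at 43.2, 45.6 and 46.5 CPM in the shSTN1-labelled libraries and at 81.5, 78.4 and 76.8 CPM in the shControl-labelled libraries (log2 fold change -0.81, edgeR adjusted p = 3.65e-11). RFC2 was at 71.3, 73.5 and 73.8 CPM in the shSTN1-labelled libraries and at 96.4, 88.2 and 96.1 CPM in the shControl-labelled libraries (log2 fold change -0.36). These small RFC subunits had no overlap between groups. RFC4 did overlap, at 44.8 ± 0.523 against 47.9 ± 6.35 CPM (SD, n = 3 each, 95% interval of the log2 fold change -0.27 to 0.10). Without shControl replicate 2, its lowest library at 40.5 CPM, RFC4 passed as lower with a log2 fold change of -0.21. PCNA, the sliding clamp itself, was lower by little, at 247, 235 and 242 CPM in the shSTN1-labelled libraries and 290, 249 and 292 CPM in the shControl-labelled libraries (log2 fold change -0.20, edgeR adjusted p = 0.00776).

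Fork processing genes went in both directions, 2 of 5 lower and 1 higher (median -0.10). Over all genes tested 38.5% were lower and 35.6% higher, so these counts do not set the step apart. RPA2, the middle subunit of the protein that coats single-stranded DNA, was at 86.4, 89.1 and 89.3 CPM in the shSTN1-labelled libraries and at 172, 154 and 173 CPM in the shControl-labelled libraries (log2 fold change -0.91, edgeR adjusted p = 9.18e-14). RPA3, the small subunit of the same protein, was at 44.7, 40.0 and 40.2 CPM in the shSTN1-labelled libraries and at 31.5, 28.8 and 35.4 CPM in the shControl-labelled libraries (log2 fold change 0.39, edgeR adjusted p = 4.16e-04). The groups did not overlap for either subunit, and the signs were opposite. FEN1, the nuclease that trims Okazaki fragment flaps, was at 94.6, 97.2 and 93.2 CPM in the shSTN1-labelled libraries and at 132, 124 and 147 CPM in the shControl-labelled libraries (log2 fold change -0.50). LIG1, the ligase that then seals the nick, was at 66.1 ± 0.866 against 70.6 ± 5.31 CPM (SD, n = 3 each, 95% interval of the log2 fold change -0.24 to 0.06). CLSPN, the claspin adaptor of the replication checkpoint, was at 51.9 ± 4.16 against 49.4 ± 4.001 CPM, with an interval of -0.10 to 0.24. Both overlapped between groups.

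Of the other fork processing genes 7 of 10 were lower and 1 higher (median -0.44), beside 38.5% lower and 35.6% higher over all genes tested. The higher gene, RNASEH2C, a subunit of the nuclease that removes RNA from DNA, overlapped between groups (log2 fold change 0.18, edgeR adjusted p = 0.0471). No gene of the list passed as higher with RLE, upper-quartile or no scaling factors, without the low-count filter, in DESeq2, with the replicate block, at an adjusted p under 0.01, or without shSTN1 replicate 1, shControl replicate 1 or shControl replicate 2. RPA1, the large RPA subunit, was at 116 ± 5.51 CPM in shSTN1-labelled and 185 ± 5.75 CPM in shControl-labelled libraries (SD, n = 3 each, log2 fold change -0.68, edgeR adjusted p = 4.28e-11). TIPIN, a fork protection factor, had a log2 fold change of -1.08. WDHD1, which tethers polymerase alpha to the helicase, was at -0.92, and TOP1, the topoisomerase that relieves twist ahead of the fork, at -0.66.

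Nucleotide supply was the only step with more members higher than lower, 3 of 5 against 1, with a median of 0.53. Over all genes tested 35.6% were higher and 38.5% lower. TK1, the thymidine kinase of the salvage route, was at 181, 183 and 174 CPM in the shSTN1-labelled libraries and at 97.6, 99.2 and 122 CPM in the shControl-labelled libraries (log2 fold change 0.75, SE 0.108, edgeR adjusted p = 7.41e-11). RRM2, the small subunit of ribonucleotide reductase, was at 388, 375 and 376 CPM in the shSTN1-labelled libraries and at 259, 266 and 238 CPM in the shControl-labelled libraries (log2 fold change 0.58, SE 0.0504, edgeR adjusted p = 6.59e-10). TYMS, thymidylate synthase, was at 144, 139 and 138 CPM in the shSTN1-labelled libraries and at 101, 92.8 and 98.1 CPM in the shControl-labelled libraries (log2 fold change 0.53, edgeR adjusted p = 1.65e-08). None of the 3 overlapped between groups, and 6394 of the 17451 genes tested likewise lay wholly above in the shSTN1-labelled libraries. TYMS shares 39.1% of its exon bases with ENOSF1 on the other strand, which was also higher (log2 fold change 0.76), so the value of TYMS is uncertain to that extent. RRM2 shares 20.2% of its exon bases with AC007240.1 on the same strand, so its value and its ratio to RRM1 are likewise uncertain. DUT, the dUTPase that keeps uracil out of DNA, was at 130 ± 9.90 against 124 ± 1.81 CPM (SD, n = 3 each), with an interval of -0.07 to 0.20 around a log2 fold change of 0.07.

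The subunits of ribonucleotide reductase lay on opposite sides of 0. RRM1, the large subunit, was at 128, 160 and 142 CPM in the shSTN1-labelled libraries and at 209, 178 and 201 CPM in the shControl-labelled libraries (log2 fold change -0.45, edgeR adjusted p = 1.92e-06). The ratio of RRM2 to RRM1 reads was 3.03, 2.35 and 2.64 in the shSTN1-labelled libraries, against 1.24, 1.49 and 1.19 in the shControl-labelled libraries, with no overlap. On the log2 scale the means were 1.41 ± 0.182 and 0.38 ± 0.175 (SD, n = 3 each), a difference of 1.03 (two-sided exact permutation test, p = 0.1, the smallest possible). RRM2B, the alternative small subunit, was at 27.8 ± 3.17 against 27.0 ± 1.75 CPM. Of 11 other nucleotide supply genes, 4 were higher and 3 lower (median 0.12), beside 35.6% higher and 38.5% lower over all genes tested. SAMHD1, which breaks down deoxynucleotides, had a log2 fold change of -1.52. DCTD, which makes the substrate of thymidylate synthase, was at 0.84 and CMPK1, a pyrimidine kinase, at 0.61.

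**Figure D4:**
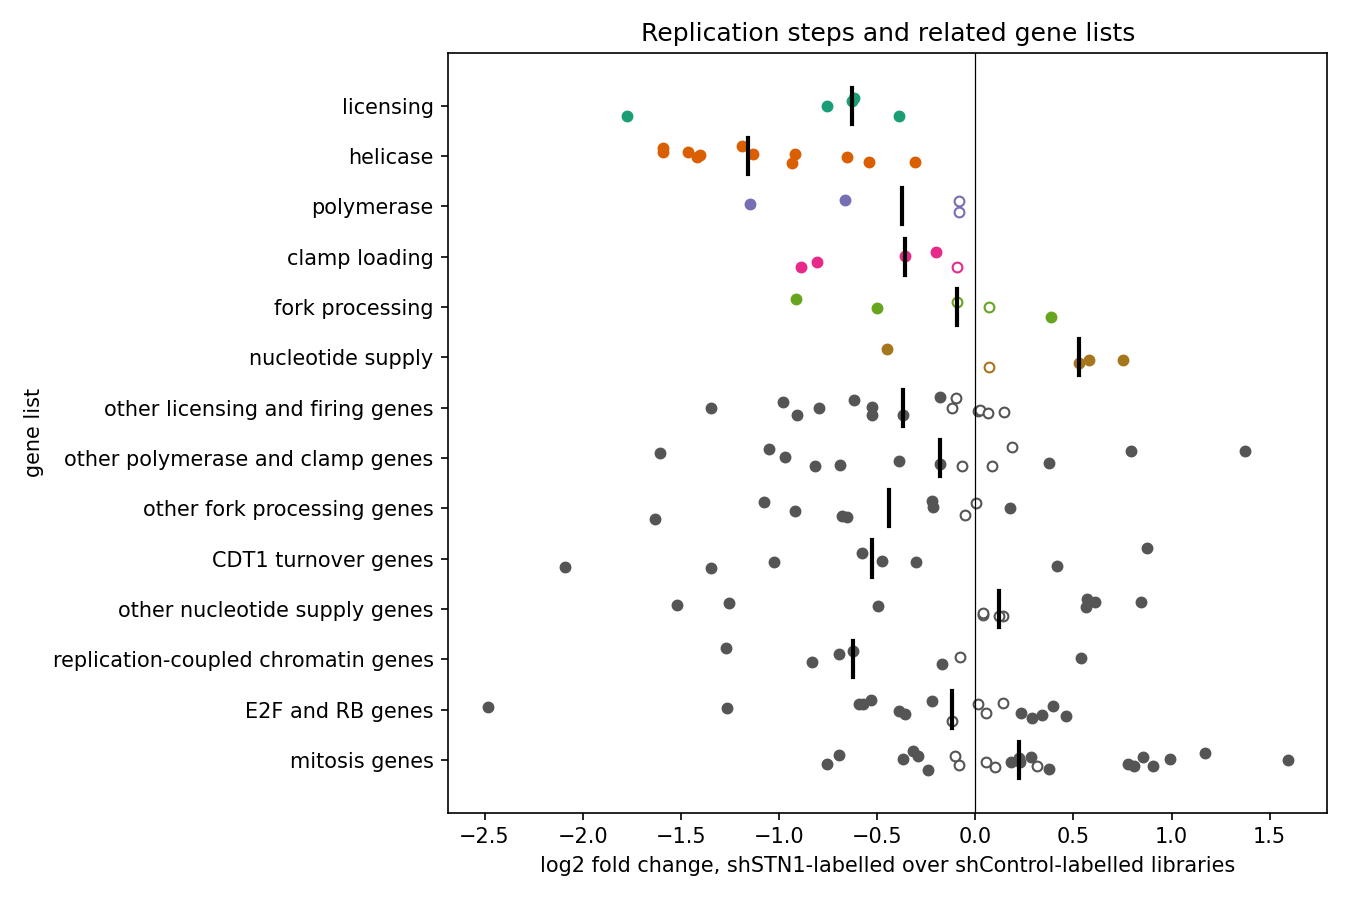
Log2 fold changes of the members of each replication step (colours) and of related gene lists (grey), with 1 point per gene, filled where it passed an adjusted p of 0.05. Vertical bars are medians, from -1.16 for helicase genes to 0.53 for nucleotide supply among the steps, and 0.22 for mitosis genes.

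Related cell cycle genes did not all follow the replication set. Of 7 genes of replication-coupled chromatin, 5 were lower and 1 higher (median -0.62). CHAF1A, the large subunit of the histone chaperone that works behind the fork, was at 64.3 ± 0.799 CPM in shSTN1-labelled and 155 ± 6.22 CPM in shControl-labelled libraries (SD, n = 3 each, log2 fold change -1.27, edgeR adjusted p = 2.17e-17). UHRF1, which guides maintenance methylation, had a log2 fold change of -0.83, CHAF1B, the partner of CHAF1A in the same chaperone, -0.69 and the histone chaperone ASF1B -0.62. Of 17 E2F and RB genes, 8 were lower and 5 higher (median -0.12), beside 38.5% lower and 35.6% higher over all genes tested. CDC25A, the phosphatase that activates CDK2, was at 27.9, 30.4 and 29.8 CPM in the shSTN1-labelled libraries and at 158, 172 and 161 CPM in the shControl-labelled libraries (log2 fold change -2.48, edgeR adjusted p = 4.29e-24). E2F2 was at -1.26, TFDP2, a dimer partner of E2F factors, at -0.57 and RBL2, which encodes p130, at -0.59, whereas E2F1 was at 96.4 ± 3.54 against 92.8 ± 5.77 CPM (edgeR adjusted p = 0.487, log2 fold change 0.06).

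Of 23 mitosis genes, 12 were higher and 6 lower, beside 35.6% higher and 38.5% lower over all genes tested. Their median was 0.22, against -0.62 for the replication set. The 6 lower genes include CCNA2 (log2 fold change -0.755) and CENPE (-0.69). Without scaling factors 8 were higher and 8 lower. ANLN, the anillin of the cleavage furrow, was at 207, 220 and 213 CPM in the shSTN1-labelled libraries and at 74.0, 76.1 and 62.4 CPM in the shControl-labelled libraries (log2 fold change 1.59). CCNB1, the mitotic cyclin, was at 363, 398 and 380 CPM in the shSTN1-labelled libraries and at 195, 176 and 202 CPM in the shControl-labelled libraries (log2 fold change 0.99). TPX2, a spindle assembly factor, had a log2 fold change of 0.91 and AURKA, the kinase it activates, 0.86. Summed over the list, mitosis genes stood at 3597 to 3737 CPM in shSTN1-labelled and at 2723 to 2780 CPM in shControl-labelled libraries. The difference between this list and the replication set was not tested, and the marker sums given above differ between the same libraries.

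Members were also set beside the genes around them on the chromosome, since the choice of members did not use position. For each member the median log2 fold change was taken over the 14 to 267 tested genes that start within 5 Mb. These medians ran from -1.03 around GINS4 to 0.94 around RRM1. For 24 of the 26 members that were lower, the member lay below the median of its neighbours, and 11 of the 12 helicase genes did so. These members were counted because they were lower, and the neighbour medians centred on 0.03, so most would lie below in any case. No such share was taken over other genes that were lower. CDT1 was at -1.78 among 96 neighbours with a median of -0.06, and GINS2, which lies within 5 Mb of it on chromosome 16, was at -1.47 against -0.08. MCM2 was at -1.13 against 0.06, and MCM6 at -1.19 against 0.005. Around GINS4 on chromosome 8 the neighbours were low themselves, 34 of 45 lower and 4 higher, and around MCM10 on chromosome 10 their median was -0.87. The median around CDC45 on chromosome 22 was -0.65. MCM5 on the same chromosome, at -0.66, lay close to its neighbours at -0.71, but below the median of 0.18 over the 26 genes within 2 Mb.

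The genes of nucleotide supply that were higher lay where their neighbours were higher too, as did several members that were not higher. Neighbour medians were 0.57 around RFC2 (itself at -0.36), 0.55 around RFC4 (-0.09), 0.48 around POLE (-0.08) and 0.34 around POLD3 (-0.66). RRM2 was at 0.58 and its 36 neighbours on chromosome 2 had a median of 0.60, with 21 higher and 5 lower. TYMS was at 0.53 and its 30 neighbours on chromosome 18 at 0.76, though at 0.20 over the 13 genes within 2 Mb. TK1 was at 0.75 and its 211 neighbours on chromosome 17 at 0.51, with 130 higher and 31 lower. RPA3 was at 0.39 and its 51 neighbours on chromosome 7 at 0.32. RRM1 went against its surroundings, at -0.45 among 138 neighbours of which 98 were higher and 19 lower. Across the 36 members Pearson's r between the value of a member and its neighbour median was 0.60 and Spearman's rho 0.61. This describes the same libraries on both axes, and POLD1 with LIG1 and CDT1 with GINS2 share neighbours. Gene copy number was not measured.

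**Figure D5:**
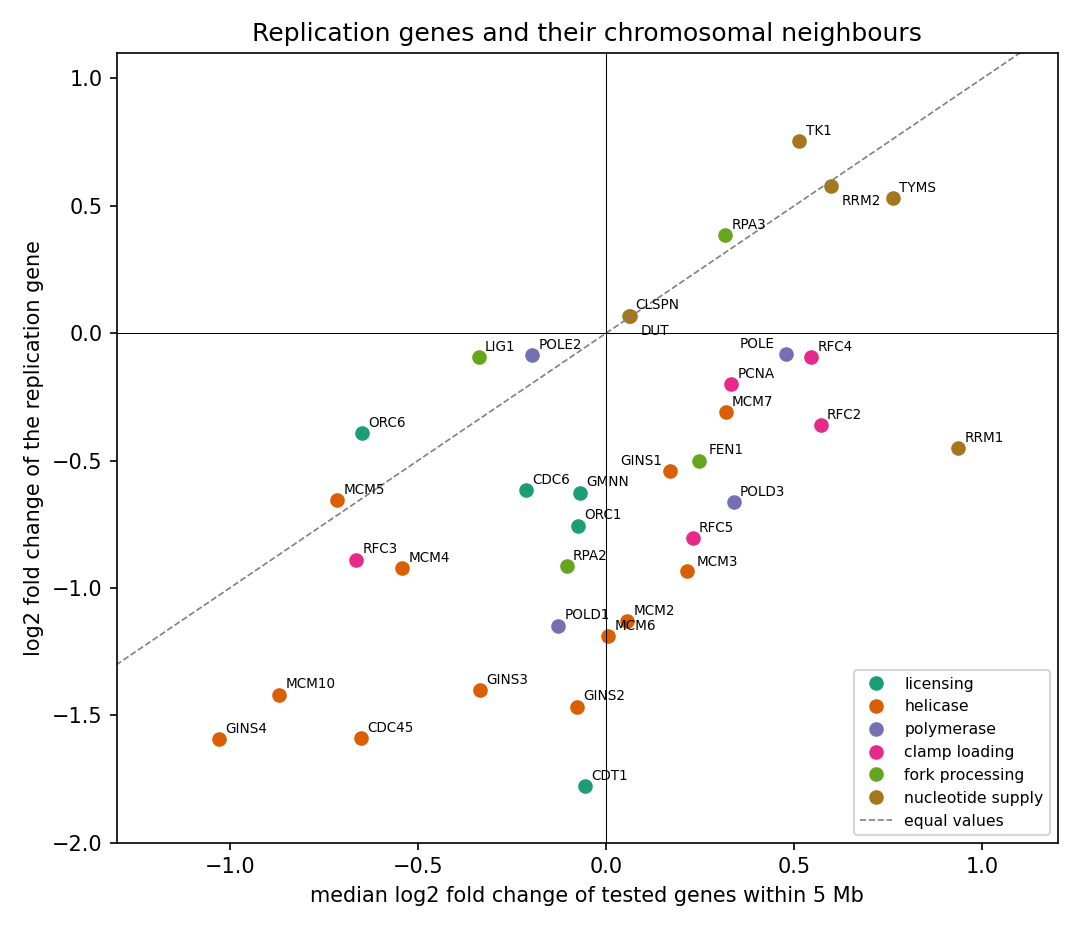
Log2 fold change of each replication gene (vertical) against the median log2 fold change of the tested genes within 5 Mb (horizontal), coloured by step. The dashed line marks equal values, and CDT1, GINS2, MCM2 and MCM6 lie far below it while RRM2, TYMS, TK1 and RPA3 lie near it. Members that were not higher also lie near it, among them DUT, CLSPN, MCM5 and RFC3.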

How the data were processed

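The authors deposited 1 table of raw read counts per gene for 6 libraries, with Ensembl identifiers and symbols. The submitters' processing notes name cutadapt, FastQC, STAR 2.7.2b, featureCounts 2.0.1 and GRCh38. The annotation release and strand setting were not given in the sources used here. Of 60668 rows, 45 pseudoautosomal second copies were left out, which left 60623. Libraries were grouped by title. Counts were fitted over all 6 libraries with edgeR 4.0.16 in R 4.3.3 (filterByExpr, TMM factors, robust quasi-likelihood test), with Benjamini-Hochberg adjustment across 17451 tested genes. CPM use TMM-scaled sizes. SEs are those of the difference in mean log2 CPM (prior count 2), and 95% intervals come from limma-voom (limma 3.58.1). Coordinates and exon lengths are from GENCODE 29 (GRCh38), and promoters from RefSeq, which held 30 of 36 members. The test was checked on simulated counts in which only a small part of the genes was changed. That check does not cover scaling or calls where most genes differ, as they do here. No library pair agreed within sampling noise (chi-square over its degrees of freedom was 3.02 or more within groups).

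The members and lists were chosen with earlier results of these data known. Per library values are given for STN1, for the 3 members of each step with the largest absolute log2 fold change and for members opposed to their step. From each other list the 4 genes with the smallest adjusted p are named. For 1 list, 1 gene under that rule is not reported here. Further values per library (MCM2, PCNA) and DBF4, E2F1, RRM2B, POLE4, POLD2, RNASEH2C, FBXO5, CCNA2, CENPE, AP4M1, ENOSF1 and the named cell line markers were chosen after their values were seen. Alternatives were RLE, upper-quartile and no scaling factors, 2 other low-count filters, DESeq2 1.42.0, limma-voom, a replicate block, an adjusted p under 0.01, leaving out each library, other windows and fewer motifs. Figures used matplotlib 3.10.9.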

Additional observations from a re-analysis of the deposited data

How the results depend on the processing

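Of the 36 members, 29 kept their direction and their side of the threshold in all 15 alternatives run across the table. The exceptions came without scaling factors, which shifted the median of all genes by -0.20. There the members past the threshold were 33, 3 higher and 30 lower, those past a 2-fold difference 14 against 9, and their median -0.82. At that setting RPA3 lost its call (0.19, adjusted p = 0.0675), POLE, POLE2, RFC4 and LIG1 became lower, and CLSPN (-0.13) and DUT (-0.13) turned negative without passing. STN1 then passed as lower (-0.35). Of all genes called, 38.0% were then higher, against 48.0% with TMM factors. RFC4 also passed as lower without shControl replicate 2. Omitting each library in turn gave 30 to 31 members past the threshold, 9 at 2-fold throughout, a median of -0.64 to -0.59, an STN1 value of -0.22 to -0.06, 12586 to 12857 genes in all, and ratio differences of 1.09 to 1.19 for GMNN over CDT1 and 0.94 to 1.13 for RRM2 over RRM1. Of the lower members, 26 of 26 lay below the median of their neighbours with windows of 2 Mb or 10 Mb. That count, too, largely follows from their being lower. The replicate block gave 12742 genes and the same 26 lower and 4 higher members, and it changed no call of a member. Same-numbered libraries deviated together with correlations of only -0.0123, 0.0171 and -0.0337, which gives no pairing. With 3 libraries per group, the interval of an uncalled member such as POLE2 still allows differences of -0.30 to 0.12.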

Other observations

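Antisense and overlapping genes touched further members. An antisense gene shares 22.7% of the exon bases of MCM2 (AC023593.1, at 0.79 CPM in shSTN1-labelled and 0.84 CPM in shControl-labelled libraries). AC007240.1, a protein-coding gene on the same strand, shares 20.2% of those of RRM2. Other antisense genes share 21.2% of the exon bases of GINS4 (AC009630.2), 14.5% of those of DUT (AC023355.1) and 10.9% of those of GINS3 (AC009118.2). Pseudogenes named after members held 60 reads against 15476 for DUT and 12 reads against 38472 for RRM2, over all 6 libraries, and 0 reads for PCNA, RFC3, RFC5, FEN1, RPA2 and TYMS.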
